A study of Homo sapiens with 4 samples.

Results

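The SMAD family comprises 8 genes, SMAD1 to SMAD7 and SMAD9, and all 8 were found in the RefSeq table among 20037 protein-coding genes on assigned chromosomes. They were chosen by name, with earlier results of these data known. Each gene was examined over its body and 10 kb on each side, in the peak lists of 2 chromatin immunoprecipitations followed by sequencing (ChIP-seq). The cells were A549, an established line from a human lung adenocarcinoma, stably transduced with a retrovirus carrying ATOH8, and grown in a medium with fetal bovine serum. No addition of TGF-beta or BMP is named for any of the 4 libraries. One library was precipitated with an antibody against the FLAG tag. Its peaks are read as those of ATOH8, a transcription factor of the basic helix-loop-helix class (bHLH). Another was precipitated with an antibody against SMAD3, and each had an input library without antibody. All 4 libraries came from ATOH8-carrying cells, so neither list holds a comparison with cells lacking the virus. Whether the transduced cells were a pool or a clone was not given in the sources used here.

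SMAD proteins carry signals from receptors of the TGF-beta superfamily to the nucleus. Receptors activated by TGF-beta or activin phosphorylate SMAD2 and SMAD3, and receptors activated by BMPs phosphorylate SMAD1, SMAD5 and SMAD9. The phosphorylated proteins join SMAD4, the common mediator, and bind DNA with partner factors, while SMAD6 and SMAD7 inhibit the pathway and are known as feedback targets of it. The question asked of the lists was whether the genes of this family themselves lay under peaks of either protein.

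With 1 library per antibody there was no replicate and no test between conditions, and all values below describe these libraries. The ChIP libraries held 17133946 (FLAG) and 16857119 (SMAD3) tags after filtering, and the inputs 20785894 and 17215727. The lists held 9466 FLAG and 7184 SMAD3 peaks, of which 25.7% and 7.89% had a q under 0.05. The pileup (tags over the summit), the fold enrichment over the local background and the p and q of each peak are the authors' values. The background that the caller used was worked back from pileup and fold and is called the implied input background. It could not fall below a genome-wide floor, 1.53 tags for FLAG and 1.27 for SMAD3.

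SMAD3 peaks lay at SMAD2 (1 peak) and at the SMAD3 gene itself (3 peaks), and FLAG peaks at none of the 8 genes. The remaining 6 genes, SMAD1, SMAD4, SMAD5, SMAD6, SMAD7 and SMAD9, had no peak of either list in the gene or within 10 kb. The 4 peaks had 7 to 9 tags, with a median of 8 tags and of 2.98-fold, against medians of 7 tags and 3.09-fold over the SMAD3 list, and none had a q under 0.05. Across all protein-coding genes, 16.2% (SMAD3) and 16.5% (FLAG) had a peak in the same kind of window. At these shares 1.3 and 1.32 of 8 genes would carry one, so counts of 2 and 0 were near the background. SMAD genes are long, with a median of 77.2 kb against 24.1 kb for all protein-coding genes. Among the 6180 protein-coding genes with a length between those of SMAD7 (31.1 kb) and SMAD3 (129.6 kb), the shares were 19.4% (SMAD3 list) and 20.4% (FLAG list), or 1.55 and 1.63 of 8 genes. A SMAD3 peak without a FLAG peak, as at SMAD2 and SMAD3, was found at 11.0% of all protein-coding genes.

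**Figure D1:**
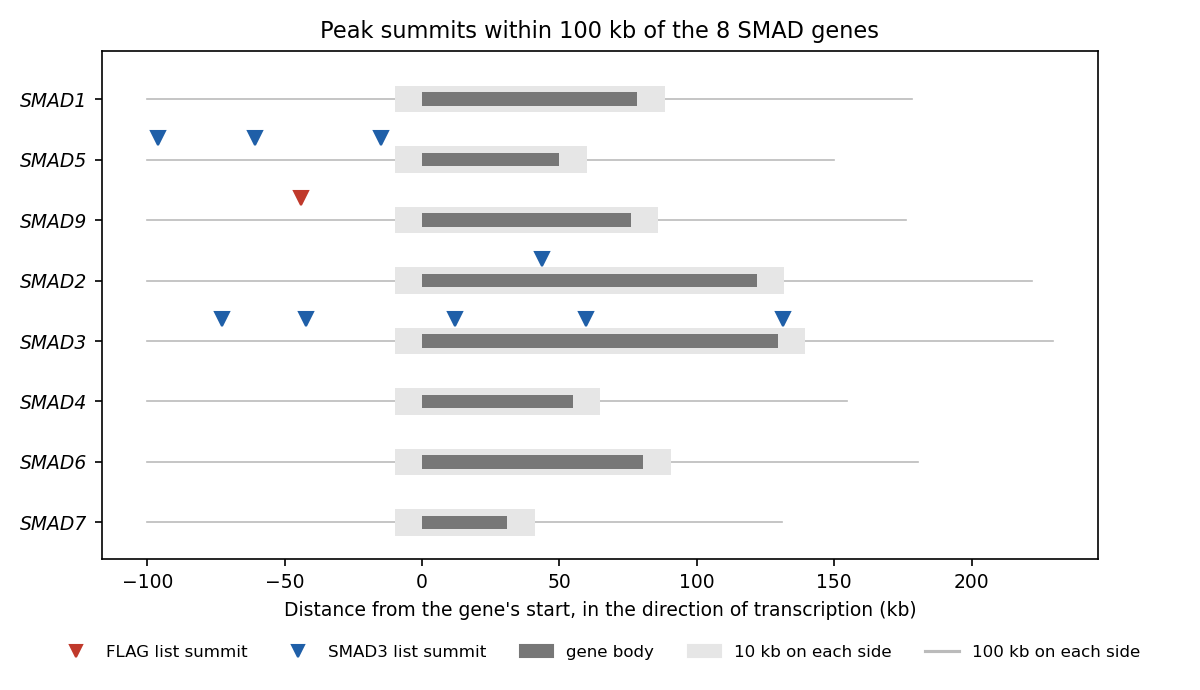
Positions of peak summits (triangles) within 100 kb of each SMAD gene, drawn from the start of the gene in the direction of transcription, in kb, with the gene body in dark grey and the window of 10 kb on each side in light grey. The SMAD3 gene has 3 SMAD3 list summits in its window and SMAD2 has 1, and the only FLAG list summit lies upstream of SMAD9, outside the window.

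SMAD3, one of the mediators of TGF-beta and activin signals, carried the most peaks of the family (chromosome 15, 67065602 to 67195169, plus strand, hg38). The first peak (67077534 to 67077805) had its summit 12.1 kb past the start of the gene, with 7 tags and a fold of 2.51. Its p was 0.0019 (−log10 p of 2.72) and its −log10 q was 0. The next peak (67125228 to 67125430) was the strongest at this gene, with 9 tags, a fold of 3.14, a p of 9.6e-05 and a −log10 q of 0.189. Its summit lay 59.8 kb past the start and 47.6 kb from that of the first peak. The peak farthest along (67196715 to 67197005) had 8 tags, a fold of 2.82, a p of 0.00045 and a −log10 q of 0. It lay 1546 bp past the end of the gene and overlapped no annotated gene. Peaks inside the gene could not be placed in exons or introns, because the annotation used here lists genes without exons.

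Of all protein-coding genes, 0.998% (200 genes) had 3 or more SMAD3 peaks in the gene or within 10 kb, and of those with a length in the range of the SMAD family 0.518% (32 of 6180). The SMAD3 gene itself sets the upper end of that range, so none of the 6180 genes is longer than it. The share among genes close to its own length was not computed. The gene and the limits of 3 peaks here and 5 peaks for the wider window were chosen after its count was seen to be the highest of the 8, so these shares only describe it. The SMAD3 window held 20.1 SMAD3 peaks per Mb, against 2.47 per Mb over the windows of all protein-coding genes. Further SMAD3 peaks lay upstream, 42.0 and 72.8 kb from the gene, both inside the noncoding gene SMAD3-DT. They had 7 and 9 tags and folds of 2.73 and 3.38. With 100 kb on each side the gene thus had 5 SMAD3 peaks, a number that 0.659% of protein-coding genes reached. Density in this wider window was 15.2 peaks per Mb, against 2.73 for all protein-coding genes and 3.11 for those of chromosome 15. Nothing of the FLAG list lay so near. Its closest peak (66928786 to 66929026, 7 tags, 2.56-fold) had its summit 136.8 kb upstream of the SMAD3 gene, and the summits of the 3 SMAD3 peaks were 148.9, 196.5 and 268.0 kb from any FLAG summit.

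The implied input background was raised at the peaks of the SMAD3 gene, and it is known only at listed peaks. All 3 peaks had an implied input background of 2.19 tags, 1.73 times the floor and equal to 11 input tags per kb, and only 11.5% of SMAD3 list peaks had a higher one. At that background a summit needs 7 tags to pass the p cutoff of 0.0065, so the first peak lay on the limit and the next and the last 2 and 1 tags above it. At the floor 5 tags are enough. The part of the input background in the number of peaks was not tested.

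**Figure D2:**
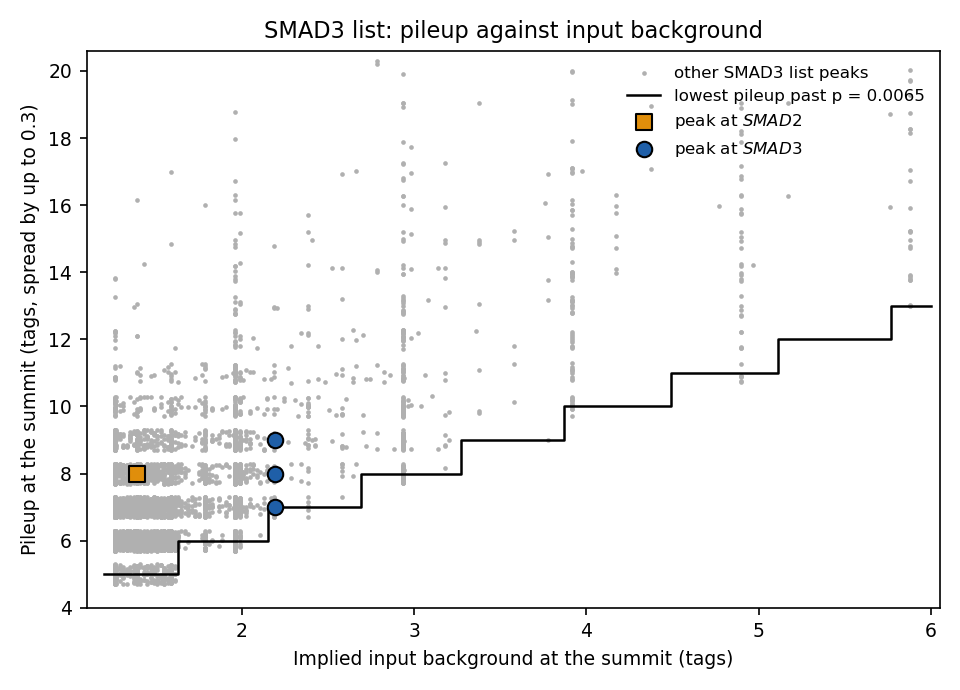
Pileup at the summit (tags) against implied input background (tags) for the peaks of the SMAD3 list, with the 4 peaks at SMAD genes marked and the lowest pileup that passes the p cutoff drawn as a line. Points of other peaks are spread vertically by up to 0.3 tags, and 302 peaks with more than 20 tags or a background above 6 are not shown. The SMAD3 gene's peaks stand at 7, 8 and 9 tags on a background of 2.19, and the SMAD2 peak at 8 tags on 1.39.

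SMAD2, the closest relative of SMAD3 (chromosome 18, 47808957 to 47930872, minus strand), held 1 SMAD3 peak (47887295 to 47887497). It had 8 tags, a fold of 3.76, a p of 1.6e-05 and a −log10 q of 0.551, and was the strongest of the 4. Of the SMAD3 list, 14.7% of peaks had a higher fold and 21.6% a higher pileup. For the peaks at the SMAD3 gene the shares with a higher fold were 88.9%, 44.6% and 72.6%, in the order of position, and the shares with a higher pileup 39.3%, 13.4% and 21.6%. By pileup, all 3 thus ranked higher in the list than by fold. The implied input background at SMAD2 was 1.39 tags, 1.1 times the floor, where 5 tags pass the cutoff. The summit lay inside the gene, 43.5 kb past its start, and 1030 kb from the nearest FLAG summit. That FLAG peak, 951.5 kb from the gene itself, lay in PIAS2, a SUMO ligase gene (7 tags, 3.16-fold). The width of the SMAD3 list peak in SMAD2 was 203 bp. This width, like that of the strongest SMAD3 gene peak, equalled the modelled fragment length, the shortest width the caller returns, as did 41.6% of the SMAD3 list. Apart from this peak, no SMAD3 peak lay between position 36282318 and position 51869268 of chromosome 18, a stretch that also contains SMAD7 and SMAD4.

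To see where the peaks lay relative to start sites, summits were compared with the 19 start sites listed for the 8 genes among the RefSeq promoters. SMAD1 and SMAD3 have 5 each. The first listed site lies 0.536 kb past the start of the gene at SMAD1 and 0.616 kb past it at SMAD9. The strongest peak at the SMAD3 gene had its summit 379 bp upstream of an internal start site at position 67125742, 60.1 kb past the first. SMAD3 was the only SMAD gene with a SMAD3 summit within 1 kb of a start site, a proximity found for 1.16% of 15843 protein-coding genes in the promoter table. No SMAD gene had a FLAG summit so near, against 1.56% of those genes. Both shares count a gene by any of its start sites and were not adjusted for their number. None of the 19 promoter windows (250 bases before to 50 after the start) was itself overlapped by a peak of either list.

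The promoter at the internal SMAD3 start is printed because it is the SMAD family promoter nearest to a peak, and that of the first SMAD3 start for comparison. The sequences are from RefSeq (GRCh38.p14), read 5′ to 3′ on the strand of the gene. Capitals mark the Smad-binding element CAGAC or its reverse complement GTCTG, and the GC-rich Smad-binding element GGCGC or its reverse complement GCGCC. They also mark the palindromic element GTCTAGAC and CANNTG, the E-box that bHLH factors recognise, where N is any base. Both strands were searched, so that GGCGCC counts as a pair of overlapping matches. The internal promoter, chr15:67125492-67125791 on the plus strand, is as follows.
SMAD3 internal start: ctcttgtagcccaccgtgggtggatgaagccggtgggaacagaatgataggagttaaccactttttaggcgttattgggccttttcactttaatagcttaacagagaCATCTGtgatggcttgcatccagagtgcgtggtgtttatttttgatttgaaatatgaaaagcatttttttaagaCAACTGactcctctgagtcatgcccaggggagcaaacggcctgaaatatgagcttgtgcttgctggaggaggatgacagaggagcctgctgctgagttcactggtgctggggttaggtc
The window at the first start, chr15:67065352-67065651 on the plus strand, has its nearest SMAD3 summit at a distance of 12.1 kb.
SMAD3 first start: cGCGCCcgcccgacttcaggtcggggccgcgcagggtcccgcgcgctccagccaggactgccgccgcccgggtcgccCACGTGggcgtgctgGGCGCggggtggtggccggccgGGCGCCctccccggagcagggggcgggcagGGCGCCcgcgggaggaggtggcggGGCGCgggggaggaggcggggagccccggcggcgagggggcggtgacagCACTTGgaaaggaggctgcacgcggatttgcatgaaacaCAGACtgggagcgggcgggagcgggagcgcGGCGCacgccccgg

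The internal promoter held 2 E-boxes and no CAGAC or GGCGC. Its G and C content was 47%. The first promoter held 1 CAGAC, 8 GGCGC and 2 E-boxes at a G and C content of 80.3%. The median G and C content over all RefSeq promoter windows was 58.7%. Of all 35116 RefSeq promoter windows, 45.3% held CAGAC, 48.6% GGCGC and 68.7% an E-box, against 7, 12 and 13 of the 19 SMAD windows (36.8%, 63.2% and 68.4%). Some windows of SMAD1 overlap, as do those of SMAD2, so the 19 windows are not independent. The part of G and C content in these shares was not tested. These matches describe the letters of the windows and locate no bound site. The sequences under the peaks themselves were not used here.

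SMAD4, the common mediator (chromosome 18, 51030213 to 51085042), had no peak of either list within 100 kb. Its nearest FLAG summit lay 175.2 kb away (6 tags, 2.77-fold) and its nearest SMAD3 summit 784.3 kb away (5 tags, 2.65-fold).

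The inhibitory genes SMAD6 (chromosome 15, 66702236 to 66782849) and SMAD7 (chromosome 18, 48919853 to 48950965) also had no peak within 100 kb. The nearest SMAD3 summit to SMAD6 lay 187.7 kb upstream, in ZWILCH, a gene of a kinetochore complex (6 tags, 2.86-fold), and its nearest FLAG summit 146.0 kb downstream (7 tags, 2.56-fold). For SMAD7 the nearest SMAD3 summit was the one inside SMAD2, 1033 kb away, and the nearest FLAG summit lay 441.4 kb away, in DYM (6 tags, 2.77-fold). At least that distance from a SMAD3 summit was found for 11.1% of protein-coding genes. A promoter of each gene is printed because feedback through the inhibitory SMADs is a known property of the pathway. The printed windows hold Smad-binding elements without a listed peak. The SMAD6 window is chr15:66701986-66702285, plus strand. SMAD7 has 3 windows, and the one printed is that of its first start, chr18:48950916-48951215, minus strand.
SMAD6: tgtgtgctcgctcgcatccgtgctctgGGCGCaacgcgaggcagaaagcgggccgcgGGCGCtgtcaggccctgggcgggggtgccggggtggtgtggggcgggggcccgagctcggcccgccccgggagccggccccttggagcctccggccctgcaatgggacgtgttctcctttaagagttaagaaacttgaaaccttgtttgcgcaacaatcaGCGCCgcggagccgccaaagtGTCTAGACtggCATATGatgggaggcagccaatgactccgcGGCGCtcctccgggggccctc
SMAD7: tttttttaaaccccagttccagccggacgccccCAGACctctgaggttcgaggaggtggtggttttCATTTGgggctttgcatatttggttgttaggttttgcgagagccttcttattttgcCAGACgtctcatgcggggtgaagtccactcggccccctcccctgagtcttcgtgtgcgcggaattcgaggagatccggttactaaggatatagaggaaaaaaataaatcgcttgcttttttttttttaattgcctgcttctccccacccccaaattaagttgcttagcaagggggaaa

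SMAD6 was the only SMAD gene with GTCTAGAC in a promoter window, and 71 of the 35116 windows (0.202%) held this palindrome, which was added to the search after these sequences had been seen. Its window also held 4 GGCGC and 1 E-box. The printed SMAD7 window held 2 CAGAC, 1 E-box and no GGCGC. Of the SMAD7 windows not printed, that at start site 48949333 held 1 CAGAC and that at 48942807 no CAGAC. Neither held GGCGC. The absence of a listed peak in these windows means that the caller returned none there at this depth. A listed peak takes at least 5 tags at the floor of either list, and a width of at least the modelled fragment length.

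The BMP-regulated genes SMAD1, SMAD5 and SMAD9 had no peak in their windows, and they differed in what lay around them. SMAD5 (chromosome 5, 136132845 to 136182733) was just outside the limit of 10 kb: a SMAD3 peak of 7 tags and 3.07-fold (136117920 to 136118176, −log10 q of 0) lay 14.7 kb upstream. A weaker SMAD3 peak lay 60.4 kb upstream (6 tags, 2.72-fold). One more SMAD3 peak, 95.9 kb upstream, lay inside TGFBI, which encodes an extracellular matrix protein induced by TGF-beta (136036777 to 136036979, 8 tags, 3.76-fold, −log10 q of 0.551). With SMAD2 and SMAD3, 3 SMAD genes thus had a SMAD3 peak within 100 kb, where 44.3% of all protein-coding genes had one. The closest FLAG summit to SMAD5 was 451.6 kb away, in SLC25A48 (7 tags, 3.07-fold).

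SMAD9 (chromosome 13, 36844831 to 36920854) was the only SMAD gene with a FLAG peak within 100 kb, against 44.8% of protein-coding genes. This peak (36964906 to 36965146, 7 tags, 3.16-fold, −log10 q of 0.261) lay 44.1 kb upstream, inside ALG5, a gene of protein glycosylation. The nearest SMAD3 summit lay 1014 kb away.

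SMAD1 (chromosome 4, 145480770 to 145559176) was the most isolated. Its nearest SMAD3 summit was 4043 kb away, a distance that 1.34% of protein-coding genes reached or passed, and its nearest FLAG summit 777.3 kb away. That FLAG peak, inside SLC10A7, was stronger than any other nearest peak of the family, with 21 tags, a fold of 8.7 and a −log10 q of 12.8 (146335937 to 146337004). In all, 4 SMAD genes (SMAD1, SMAD4, SMAD6 and SMAD7) had no peak of either list within 100 kb, as had 35.1% of protein-coding genes.

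**Figure D3:**
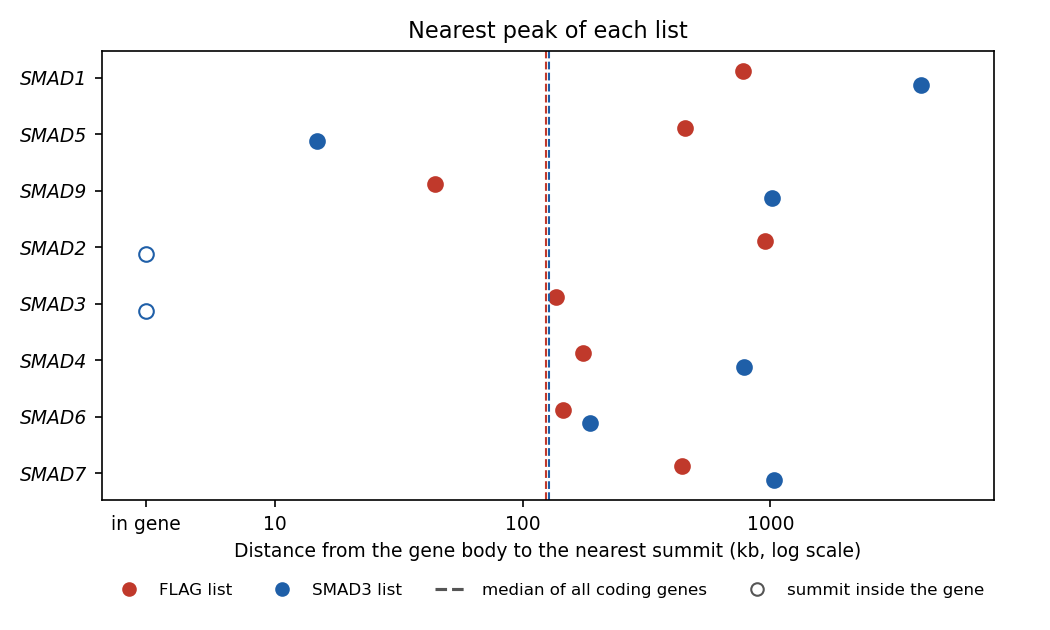
Distance in kb (log scale) from each SMAD gene body to the nearest summit of the FLAG list and of the SMAD3 list, with the medians of all protein-coding genes as dashed lines (124.4 and 128.2 kb) and open circles for summits inside the gene. For FLAG, all SMAD genes other than SMAD9 lie beyond the median of protein-coding genes.

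The median distance to the nearest FLAG summit was 308.3 kb for the SMAD genes and 124.4 kb for all protein-coding genes. For the SMAD3 list the medians were 486.0 and 128.2 kb, with SMAD2 and SMAD3 at 0. SMAD genes share regions, since SMAD3 and SMAD6 are neighbours on chromosome 15 and SMAD2, SMAD7 and SMAD4 lie in one part of chromosome 18, so the 8 distances are not independent.

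The regions around the SMAD genes differed in their number of peaks, and a region with many did not always place one at the gene. Within 5 Mb of the SMAD3 gene the lists held 42 SMAD3 and 40 FLAG peaks (4.15 and 3.95 per Mb), and within 5 Mb of SMAD6 45 and 41, although SMAD6 had no peak of either list within 100 kb and the SMAD3 gene no FLAG peak. Around SMAD5 there were 35 SMAD3 and 31 FLAG peaks. SMAD2, SMAD7 and SMAD4 had 2, 2 and 3 SMAD3 peaks within 5 Mb, 1 of them inside SMAD2, and 11, 10 and 12 FLAG peaks. SMAD9 had 4 SMAD3 and 12 FLAG peaks, and SMAD1 had 1 and 5. Both lists therefore showed the highest numbers around SMAD3, SMAD6 and SMAD5. Per Mb of the effective genome used by the caller, the lists held 2.58 SMAD3 and 3.37 FLAG peaks on assigned chromosomes. The regional densities are per Mb of the full region, so the measures differ.

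On chromosome 15, where the regions of SMAD3 and SMAD6 overlap, the median implied input background at listed peaks was above that of the whole list. The median implied input background of SMAD3 list peaks within 5 Mb was 1.55 times the floor around SMAD3 and SMAD6, against 1.16 times for the whole list. For FLAG list peaks it was 1.52 times around SMAD3 and 1.49 around SMAD6, against 1.08. Around SMAD5, where peaks were also frequent, it was only 1.11 and 1.05 times the floor. Around SMAD1, SMAD9 and SMAD4 it stood at the floor in both lists. The part of the input background in these regional numbers was not tested. The distance of 5 Mb was chosen after the peaks had been seen.

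**Figure D4:**
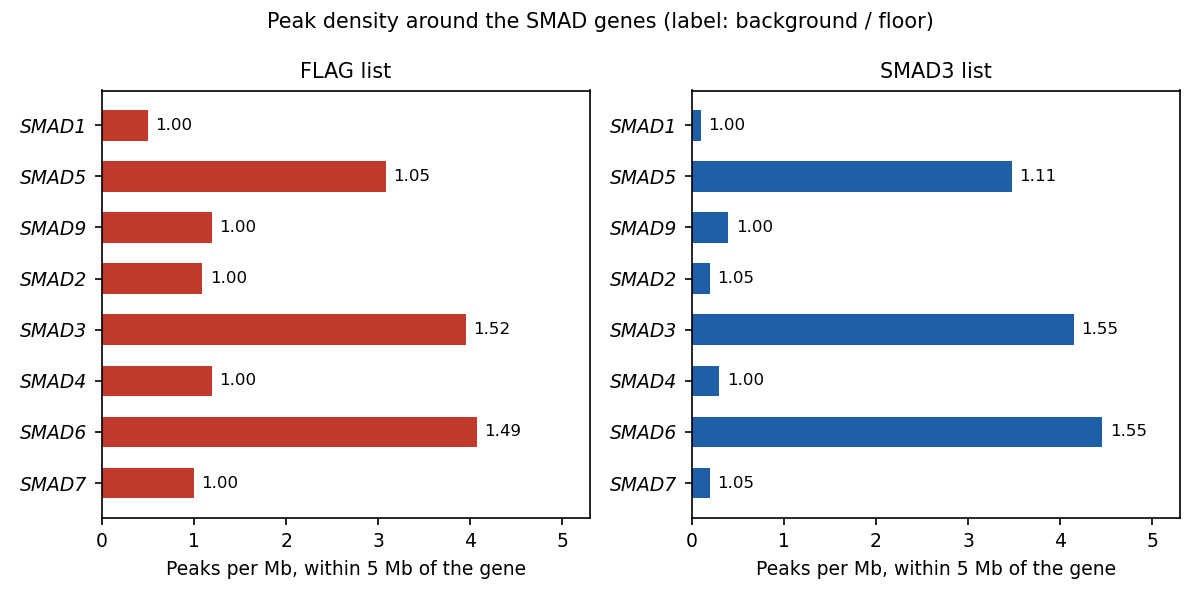
Peaks per Mb within 5 Mb of each SMAD gene in both lists, with the median implied input background of those peaks, as a multiple of the floor, written beside each bar. SMAD3, SMAD6 and SMAD5 have the longest bars in both lists, and SMAD3 and SMAD6 the highest background; regions of SMAD3 and SMAD6, and of SMAD2, SMAD7 and SMAD4, overlap.

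The other genes of the pathway were examined in the same windows of 10 kb, as 12 ligands, 14 receptors and 28 partners and regulators of SMAD proteins. These groups too were chosen with earlier results of these data known. For comparison, the shares with a peak were 16.5% (FLAG) and 16.2% (SMAD3) over all protein-coding genes, and 20.4% and 19.4% over those in the length range of the SMAD family. That range was not matched to these groups, whose median lengths were 18.2, 87.0 and 98.6 kb in the order named. The comparison therefore does not account for their gene lengths. Of the ligands, 1 carried FLAG peaks (8.33%) and 3 carried SMAD3 peaks (25.0%). TGFB2, a TGF-beta isoform, had both kinds: 3 FLAG peaks, the strongest at 3.56-fold with 8 tags, and a SMAD3 peak at 3.19-fold with 7 tags. BMP4, a BMP ligand, had a SMAD3 peak of 9 tags and 3.38-fold. None of these had a q under 0.05.

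FLAG peaks were found at 4 receptor genes (28.6%) and SMAD3 peaks at 1 (7.14%). TGFBR3, which encodes betaglycan, a co-receptor that presents TGF-beta, carried by far the strongest FLAG peak of the pathway lists. It lay inside the gene (chromosome 1, 91838950 to 91841716), spanned 2767 bp and had 44 tags, a fold of 12.96 and a −log10 q of 33.9. BMPR1B, a type I BMP receptor, carried a FLAG peak at 3.56-fold (8 tags, q of 0.166). ENG, which encodes the co-receptor endoglin, had the SMAD3 peaks of this group, at 3.11-fold (7 tags) and 2.72-fold (6 tags), both with a −log10 q of 0.

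Of 28 partners and regulators, 11 were reached by FLAG peaks (39.3%) and 6 by SMAD3 peaks (21.4%), with a median gene length of 98.6 kb. The share among genes matched to this group in length was not computed. NEDD4L, a ubiquitin ligase that targets activated SMAD2 and SMAD3, carried a FLAG peak at 3.95-fold (9 tags, q of 0.0371). ZEB1, a repressor that works with SMAD proteins in epithelial to mesenchymal transition, had one at 3.56-fold (8 tags, q of 0.166). In the SMAD3 list the strongest were SMURF1, another ubiquitin ligase, at 3.4-fold with 7 tags and a q of 0.648, and CREBBP, a histone acetyltransferase and coactivator, at 3.21-fold with 7 tags and a q of 0.872. RNF111, PIAS1, CREBBP and NEDD4L, 4 of 28 genes, had peaks of both lists, named here after their values were seen. Only the FLAG peak at NEDD4L had a q under 0.05 among the peaks of these genes. Of all 20037 protein-coding genes, 3241 (16.2%) had a SMAD3 peak, of which 2196 (11.0% of all) had no FLAG peak and the rest had both. Among these regulators, only PIAS1 had a FLAG peak (68054525 to 68054917) overlapping a SMAD3 peak (68054719 to 68055048). The FLAG peak there had 10 tags, a fold of 2.56 and a q of 0.845, on an implied input background of 3.3 tags. The SMAD3 peak there had 7 tags, a fold of 3.07 and a −log10 q of 0. A share of all genes with such an overlap is not given here, so the overlap only describes this gene. In NEDD4L the FLAG peak began at 58057744 and the SMAD3 peak at 58355276. Per Mb of window, the partners and regulators held 4.85 FLAG and 2.16 SMAD3 peaks, the receptors 2.12 and 1.06, and the ligands 4.17 and 4.17. All protein-coding genes held 2.59 FLAG and 2.47 SMAD3 peaks per Mb, and the SMAD genes 0 and 5.11. Of the 4 SMAD3 peaks behind the value of 5.11, 3 lay at the SMAD3 gene. No difference between these groups was tested.

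**Figure D5:**
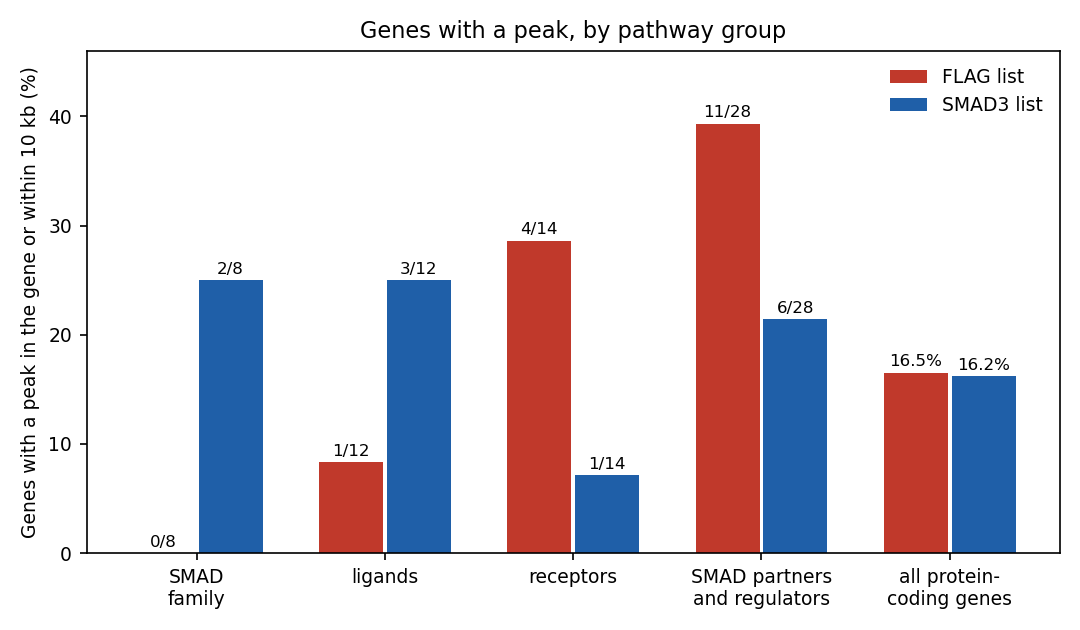
Share of genes (%) with a peak in the gene or within 10 kb, for the SMAD family, 3 other groups of pathway genes and all protein-coding genes, with the counts above the bars. The SMAD family has 0 of 8 genes with a FLAG peak and 2 of 8 with a SMAD3 peak, and all protein-coding genes have 16.5% and 16.2%.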

How the data were processed

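ChIP-seq peak lists were used as deposited, 1 per antibody, each from 1 ChIP library and its input. FastQC 0.11.8 (read quality), Bowtie2 (alignment), the build hg38 and MACS2 2.2.7.1 (peaks) are listed, per the submitters' processing notes. Peaks were called at a p cutoff of 0.0065 with 1 tag kept per position, per the file headers. The authors deposited the pileup signal, the fold ratio, and −log10 p and −log10 q of each peak. The headers announce no q values although the column holds them.

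Genes and promoters came from RefSeq (GRCh38.p14). A peak belonged to a gene if it overlapped the body or 10 kb on each side by 1 bp or more (Python 3.11.15, numpy 2.4.6, pandas 2.3.3). The code was tested on simulated data, and its counts equalled those of bedtools 2.31.1. Implied input background was (pileup + 1) / fold − 1. Poisson p-values (scipy 1.17.1) from pileup and this background were within 0.05 of the deposited −log10 p for 9465 of 9466 FLAG and all 7184 SMAD3 peaks. Alternatives covered window, threshold, summit position and background.

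The SMAD genes and pathway lists were chosen with earlier results of these data known. Named pathway genes are up to 2 per list and antibody with the highest fold. Protein identities were not computed, since protein sequences were not used here.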

Additional observations from a re-analysis of the deposited data

How the results depend on the processing

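No paired analysis was possible because each antibody has 1 library. Counts of FLAG peaks at SMAD genes were 0 in the gene body, in the window of 10 kb and under each stricter threshold. With 50 kb or 100 kb on each side, 1 SMAD gene (SMAD9) had 1 FLAG peak. With the SMAD3 list, 2 SMAD genes had a peak in all settings but 3. Those were 50 kb and 100 kb on each side, where SMAD5 made 3 genes, and a q under 0.05, where 0 genes and 0 peaks were left. The number of SMAD3 peaks was 9 with 100 kb on each side and 2 at a fold of 3 or more, 1 each at SMAD2 and SMAD3, against 4 as reported. It ranged from 3 to 6 in the settings with gene bodies only, 50 kb on each side, a −log10 p of 3 or more, summits in the window or an implied input background under 5 tags. At a q under 0.05 the share of protein-coding genes with a peak was 0.614% (SMAD3) and 2.8% (FLAG), so that the lists are too sparse there to describe 8 genes. The effect of depth was not tested. Peaks at the SMAD3 gene had 7 to 9 tags where 7 pass the p cutoff, and the SMAD2 peak 8 where 5 pass.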
